A study of Mus musculus with 4 samples.

Results

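The 9 genes described here code for parts of the B cell receptor complex, for its co-receptors and for proteins that differ between B cell subsets: Cd79a, Cd79b, Ms4a1, Cd22, Fcmr, Fcer2a, Cr2, Bank1 and Plac8. They were taken by symbol from the 31053 genes listed in the feature files, and all 9 were found. They are named by what they code for, with earlier results of these data known, and Cd79a and Ms4a1 also served to choose the B cell barcodes in which the set was measured. The other 7 members played no part in that choice.

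Single-cell RNA was counted from the 5′ ends of transcripts as unique molecular identifiers (UMIs, which count molecules rather than copies) in 4 mouse libraries. Both pancreas libraries held CD45+ leukocytes sorted by flow cytometry from 12-week-old pre-diabetic females, with 4 mice pooled per library, and both lymph node libraries held CD3 T cells selected magnetically from the pancreatic nodes of 8-week-old pre-diabetic females, with 5 mice pooled. In each tissue the control library came from Ocabfl/fl animals and the other from Ocabfl/fl.CD4-Cre animals, so the floxed Ocab allele is shared by all 4 groups and the Cre transgene is the labelled difference. Ocab is the older name of Pou2af1, which codes for the transcription coactivator OCA-B. The Cd4 promoter is active in developing and mature T cells, so B cells are not the cells in which this Cre is meant to delete the gene. With 1 library per genotype and tissue there is no replicate, so all intervals below are 95% intervals for counting error and no p-value is given.

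The B cell receptor is a membrane immunoglobulin bound to a heterodimer of CD79A and CD79B, whose cytoplasmic tails carry the signal into the cell. CD20 (Ms4a1) is a membrane protein of mature B cells, CD22 damps receptor signals, and complement receptor 2 (Cr2, CD21) lowers the threshold for them. CD23 (Fcer2a, the low-affinity IgE receptor) is high on follicular B cells and low on B1 and marginal zone cells, and plasma cells lose much of the surface receptor programme as they turn to secreting antibody.

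The promoters are shown first because OCA-B acts with Oct factors at octamer elements and is the protein whose gene is targeted. No link between these letters and the levels below was tested. RefSeq promoter windows (GRCm38.p6) were present for 7 of the 9 members, 10 windows in all, with no entry matched for Cd79b and Ms4a1. The 3 motifs below were searched on both strands. The octamer ATGCAAAT was in 0 of the 10 windows, against 1.74% of all 32851 windows in the table. The EBF1 palindrome (TCCC and GGGA parted by any 2 bases), which is the same motif on both strands, was in the Cd22 window at position −49 from the start site and in 0.904% of all windows. The RBPJ motif GTGGGAA was in the Cr2 window at position −221 and in 6.38% of all windows. A match or its lack describes these letters in these windows and nothing about binding. The stretches before the start sites of Cr2 (chr1:195176725-195176954, minus strand), Cd22 (chr7:30879034-30879178, minus strand) and Fcer2a (chr8:3694180-3694409, minus strand) are printed 5′ to 3′ along the gene. Cr2 and Cd22 are shown for their matches, marked in capitals, and Fcer2a, which held none of the motifs, because it differed most between the B1-like and follicular-like barcodes below.
Cr2: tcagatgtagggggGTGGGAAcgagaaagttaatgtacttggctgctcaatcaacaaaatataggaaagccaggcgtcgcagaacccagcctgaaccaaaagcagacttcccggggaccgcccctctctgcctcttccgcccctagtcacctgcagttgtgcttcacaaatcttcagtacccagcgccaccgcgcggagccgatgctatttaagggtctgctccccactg
Cd22: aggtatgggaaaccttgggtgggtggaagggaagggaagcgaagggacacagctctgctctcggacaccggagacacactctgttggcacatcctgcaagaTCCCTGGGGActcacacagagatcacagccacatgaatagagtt
Fcer2a: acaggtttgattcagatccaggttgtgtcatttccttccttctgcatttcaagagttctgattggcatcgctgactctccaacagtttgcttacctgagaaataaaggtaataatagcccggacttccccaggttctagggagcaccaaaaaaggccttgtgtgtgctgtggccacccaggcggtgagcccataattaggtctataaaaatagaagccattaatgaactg

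B cell barcodes had at least 2 UMIs of Cd79a and Ms4a1 together, no Cd3e UMI and were not plasma barcodes. They numbered 914 of 4004 kept barcodes in pancreas control (22.8%), 1348 of 6238 in pancreas CD4-Cre (21.6%), 40 of 2843 in lymph node control (1.41%) and 1 of 5304 in lymph node CD4-Cre (0.0189%). With 1 barcode, which held 31759 UMIs and at least 100 of Jchain, lymph node CD4-Cre is left out of the B cell comparisons. Another 5 B barcodes of pancreas control and 13 of pancreas CD4-Cre also had at least 100 Jchain UMIs. They hold 3.52% and 5.19% of the B cell UMIs and stay in the B levels and genotype ratios unless stated. Median depth was 3565, 3437 and 4580.5 UMIs per B barcode in the first 3 libraries, and the listed libraries held 14851217 to 32798133 UMIs. The pancreas libraries shared 37 kept barcode sequences, of which 2 were B barcodes in both. As a check of the B cell label by genes outside the rule, the B lineage transcription factor genes Ebf1 and Pax5 stood at 954 and 166 CPM (the usual depth-scaled count, a gene's UMIs over all UMIs of the class) in B barcodes of pancreas control and at 775 and 131 in those of CD4-Cre.

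The edge of the rule was sharp. Of the pancreas barcodes without a Cd3e UMI and outside the plasma gate, 827 in control and 899 in CD4-Cre had 0 UMIs of Cd79a and Ms4a1, and 25 and 18 had 1. Just inside the threshold, 1 and 4 barcodes had 2 UMIs and 3 and 4 had 3 UMIs, while 867 and 1294 had 8 or more. Few barcodes therefore lay near the threshold in either library.

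The gene of the heterodimer that the rule did not use, Cd79b, was detected in nearly every B barcode. Cd79a, which with Ms4a1 chose the barcodes, stood at 4053 CPM in pancreas control, 4161 in pancreas CD4-Cre and 3753 in lymph node control. Its partner Cd79b stood at 1950.3, 1979.8 and 2155 CPM and was detected in 99.1%, 99.0% and 97.5% of barcodes. Of the UMIs of both chains together, Cd79b made up 32.5% (31.9 to 33.1) in pancreas control, 32.2% (31.8 to 32.7) in pancreas CD4-Cre and 36.5% (33.7 to 39.3) in lymph node control. The balance of the chains differed by less than counting error between the pancreas libraries, and the interval of the 40 lymph node barcodes lay above both. Ms4a1, which codes for CD20 and is also a gene of the rule, stood at 939, 1047 and 1077 CPM.

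Of the modulators of the receptor, the inhibitory receptor gene Cd22 stood at 235 CPM (220.3 to 251) in pancreas control, 196 (185 to 207) in CD4-Cre and 241 (177 to 319) in lymph node control. Cr2 stood at 125 (115 to 137), 128 (119 to 137) and 135 (89.2 to 197) CPM, with intervals that overlapped among all 3 libraries. Bank1, an adaptor that binds Lyn in receptor signalling, stood at 534 (512 to 557), 568 (549 to 587) and 566 (467 to 681) CPM, also overlapping.

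The Fc receptor genes were the members whose level differed most between the tissues. Fcmr, the receptor for IgM, stood at 551 CPM (528 to 574) in pancreas control, 606 (586 to 626) in pancreas CD4-Cre and 1082 (943 to 1237) in lymph node control. Fcer2a stood at 362 (344 to 382), 408 (392 to 425) and 696 (585 to 822) CPM. The lymph node intervals lay above both pancreas libraries for both genes. The libraries also differ in tissue, age and sort, and these B barcodes came through a selection for T cells, so the tissue cannot be told apart from those. Plac8, which codes for a small cysteine-rich protein, stood at 432 (412 to 453), 379 (364 to 395) and 321 (247 to 409) CPM. Its lymph node interval lay just below that of pancreas control and overlapped that of pancreas CD4-Cre.

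**Figure D1:**
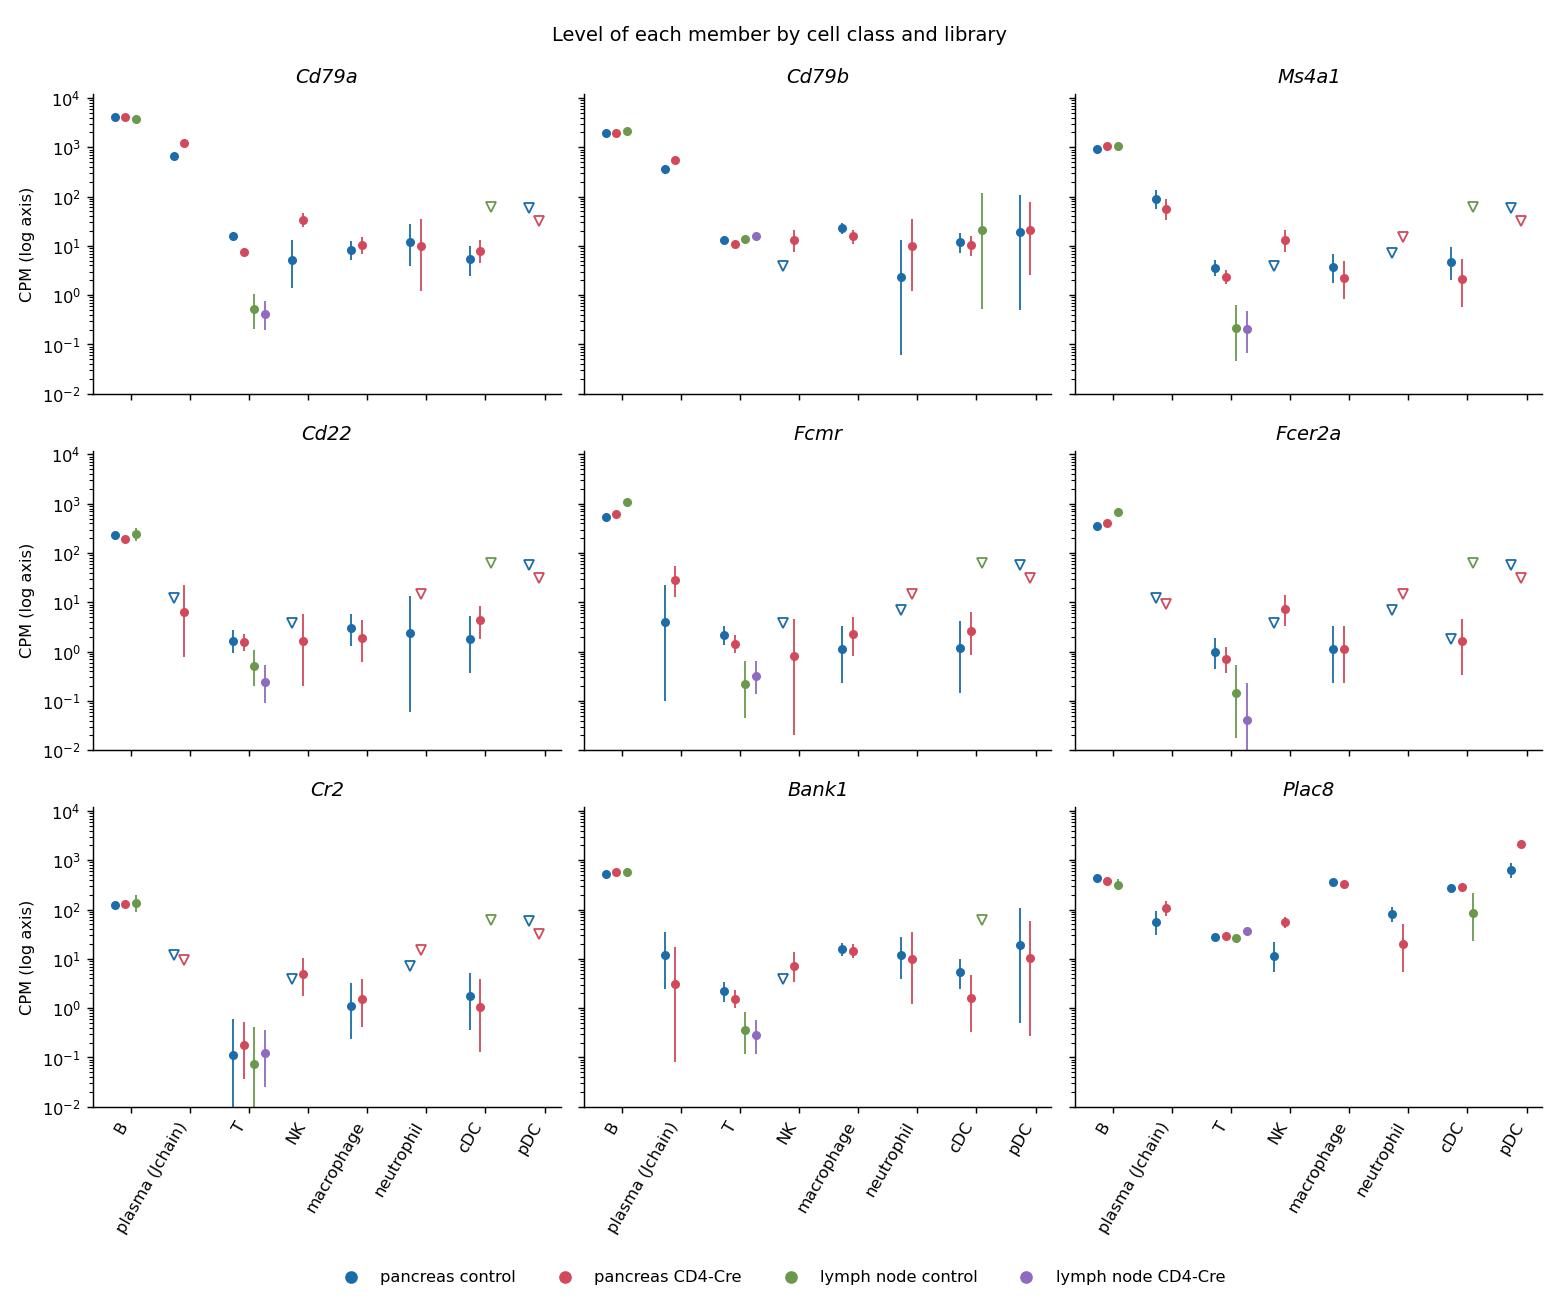
Level of each of the 9 members (CPM, log axis) by cell class, with 1 colour per library, points for summed UMIs and bars for exact 95% Poisson intervals, some of which run below the axis. Open triangles mark the level of 3 UMIs where a class of at least 5 barcodes had 0. Of the 7 members outside the rule, all but Plac8 were highest in B barcodes of both pancreas libraries, as with Cd79b at 1950.3 and 1979.8 CPM.

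Because depth sets how often a gene is seen, detection was also set at 1000 UMIs per barcode, as the share expected over random thinning. At that depth Cd79b was detected in 84.3% (81.7 to 86.6) of pancreas control B barcodes and 85.6% of CD4-Cre ones. Fcmr was in 42.6% and 45.3%, Bank1 in 42.1% and 45.9%, Fcer2a in 32.3% and 35.8%, Plac8 in 25.6% and 22.9%, Cd22 in 22.0% and 18.9% and Cr2 in 12.1% and 12.2%. Unthinned shares were higher, as for Fcer2a at 64.7% and 67.1% and Cr2 at 35.0% and 34.0%. In T barcodes, which should lack most of these genes, every member was at or below 2.48% at 1000 UMIs in all 4 libraries, the highest being Plac8 in lymph node CD4-Cre. Median depth of T barcodes in the pancreas was 3443 and 3526 UMIs, close to that of the B barcodes.

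Several members were seen together in most B barcodes. At 1000 UMIs, 3 or more of the 7 members outside the rule were detected in 52.6% (49.3 to 55.9) of 909 control and 54.7% (52.0 to 57.4) of 1343 CD4-Cre pancreas B barcodes, and in 60.6% (43.3 to 75.1) of the 40 lymph node control barcodes. The same was seen in 0.0818% of control and 0.0132% of CD4-Cre pancreas T barcodes and in 0.0242% and 0.0262% of macrophage barcodes. Barcodes at the edge of the rule were like those well inside it: with 4 to 7 UMIs of Cd79a and Ms4a1 the share was 53.8% in control and 52.6% in CD4-Cre, and with 8 or more it was 52.5% and 54.8%. With 1 such UMI, just outside, no barcode was expected to show 3 members in either library. The mean number detected was 2.61 in control and 2.67 in CD4-Cre, and the intervals of the share overlapped between the libraries.

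Pairs of members were mostly detected together about as often as the product of their shares gives. Cd79a with Cd79b gave 1.01 times the product in each pancreas library. Cd79a helped choose the barcodes and was in 97.2% and 97.4% of them at this depth, so this pair could hardly depart from the product. Fcmr with Fcer2a gave 1.09 (0.931 to 1.28) in the control library and 1.07 (0.946 to 1.20) in CD4-Cre. Fcer2a with Cr2, the pair of follicular and complement receptors, gave 1.17 (0.854 to 1.58) and 1.16 (0.903 to 1.46), intervals that hold 1. The pair furthest below 1 was Fcer2a with Plac8. It gave 0.809 (0.624 to 1.03) in the control library and 0.782 (0.628 to 0.957) in CD4-Cre, where Plac8 was detected in 17.9% of barcodes with Fcer2a and 25.7% of those without. The direction was the same in both libraries, and the interval excluded 1 in CD4-Cre but not in control. In sparse counts such ratios are descriptions, and a barcode without a Fcer2a UMI at this depth can still express the gene.

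**Figure D2:**
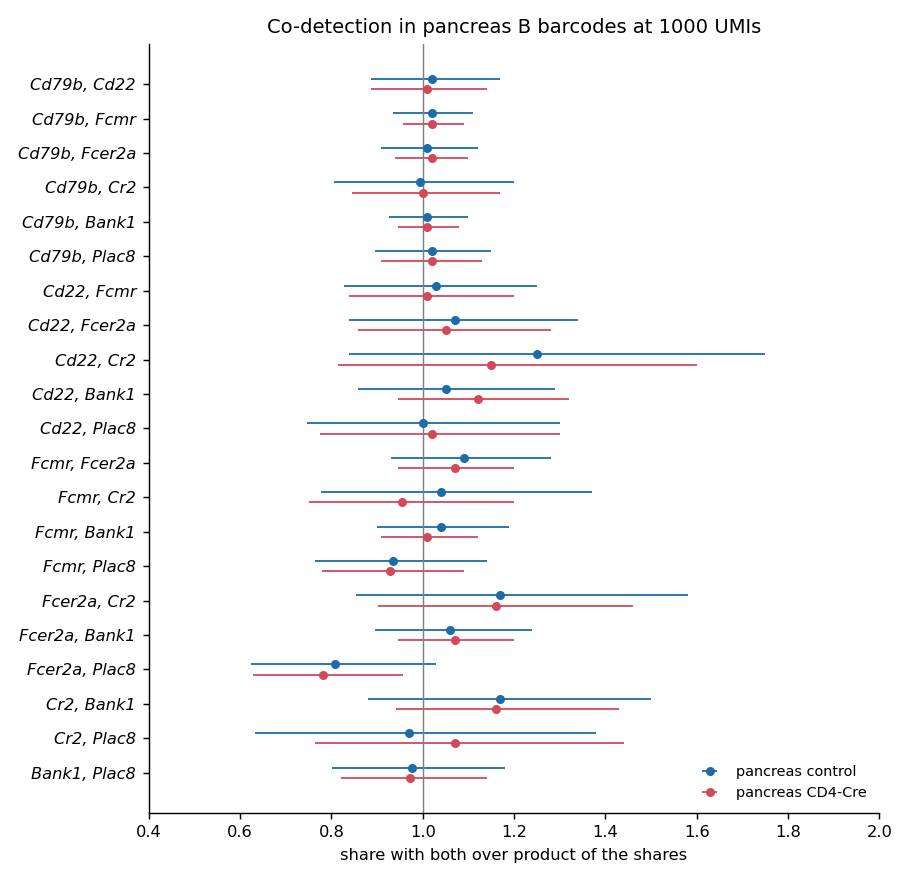
Share of pancreas B barcodes with both genes of a pair over the product of the single shares, at 1000 UMIs per barcode, for the 21 pairs of the 7 members outside the rule. Points are libraries, bars are 95% intervals from the binomial count of barcodes with both, and the line marks 1. Fcer2a with Plac8 lies lowest, at 0.809 and 0.782.

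The B barcodes with fewer than 100 Jchain UMIs were split by a Fcer2a UMI at 1000 UMIs, in 1 random thinning, which gave 309 with and 595 without in control and 475 with and 855 without in CD4-Cre. The other members were then compared at full depth. Plac8 stood at 342 CPM with and 492 without Fcer2a in control (log2 difference −0.52, −0.69 to −0.36) and at 219 and 467 in CD4-Cre (−1.10, −1.26 to −0.93). Cr2 was higher with Fcer2a, by 0.69 (0.42 to 0.95) and 0.28 (0.06 to 0.51) on the log2 scale, and Fcmr by 0.39 (0.26 to 0.52) and 0.29 (0.19 to 0.39). Ighd, the IgD heavy chain of naive follicular cells, was higher by 0.67 and 0.71. The summed level of 9 B1 cell markers was 209.7 against 1416 CPM in control and 168 against 1112 in CD4-Cre (−2.76 and −2.73). Other subset lists were lower with Fcer2a as well, age-associated markers by −1.68 and −1.46, germinal centre markers by −0.88 and −1.79 and marginal zone markers by −0.33 and −0.48, while follicular markers were higher by 0.39 and 0.43. The split kept 24 barcodes of a cluster led by macrophage genes (cluster 11 below). Their B1 markers summed to 2942 CPM, against 6599 in the 97 barcodes of cluster 8. The part of either cluster in these differences was not tested.

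To set follicular against other B cells, the pancreas B barcodes of both libraries were clustered without the 9 members and without immunoglobulin genes, into 12 clusters that each held barcodes of both libraries. Clusters 2, 4, 5 and 7 each had 5 of 8 follicular markers detected and higher than in the other B barcodes and are called follicular-like (471 barcodes in control and 593 in CD4-Cre). Cluster 4 was led by the immediate early genes Egr1 and Fos and cluster 5 by Marcksl1 and Myc, so they also carry an activation state. Cluster 8 is called B1-like (41 and 56 barcodes, 8 of 9 markers), cluster 10 germinal centre-like (14 and 19, 9 of 9, led by cell cycle genes) and cluster 12 plasma-like (4 and 12, 10 of 10). The names were rebuilt from expression, and no authors' annotation was used. Median depth was 2758 to 3606 UMIs in the follicular-like clusters, 8480.0 in the B1-like one, 17864 in the germinal centre-like one and 25213 in the plasma-like one, so CPM rather than shares of barcodes are compared.

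B1-like barcodes had little Fcer2a and much Plac8. Fcer2a stood at 26.0 CPM (12.5 to 47.9) in B1-like against 509 (474 to 545) in follicular-like barcodes of the control, and at 29.3 (15.6 to 50) against 602 (568 to 638) in CD4-Cre. That is 19.5-fold and 20.6-fold lower. These rest on 10 and 13 UMIs, of which 1 barcode held 6 and 5, and without that barcode, an alternative chosen after seeing the data, Fcer2a was 46.4-fold and 33.0-fold lower. Plac8 stood at 1111 CPM (1008 to 1222) against 300.0 (274 to 328) in the control library and 1071 (977 to 1172) against 233 (212 to 255) in CD4-Cre, 3.70-fold and 4.61-fold higher. Neither gene's levels came near to overlapping between the subsets in either library.

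The other receptors split in the same clusters. Fcmr was lower in B1-like barcodes by −1.64 (−1.97 to −1.32) in the control library and −1.17 (−1.40 to −0.93) in CD4-Cre on the log2 scale, and Cr2 by −1.46 (−2.25 to −0.77) and −1.18 (−1.80 to −0.62). Ms4a1 was 1.83-fold and 1.5-fold higher. The heterodimer moved little, with Cd79a at 0.10 in control and −0.10 in CD4-Cre and Cd79b at 0.33 and 0.12, and Cd22 stood at −0.02 (−0.37 to 0.32) and −0.10 (−0.45 to 0.23). Bank1 stood at −0.15 (−0.38 to 0.07) and −0.54 (−0.76 to −0.33). Ighd differed from follicular-like barcodes by −3.92 and −3.23, and Ighm by 0.62 and 0.91. Ighd is 1 of the 8 follicular markers that named the reference clusters, so its high level there was partly set by that choice. B1-like barcodes were also deeper, so a lower CPM in them can be a smaller share of a larger total. Unthinned, Cr2 was detected in 26.8% of B1-like and 29.7% of follicular-like barcodes in control. In CD4-Cre these shares were 28.6% and 30.7%.

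In counts, 3 of the 9 members were over 1.5-fold lower in B1-like barcodes in both libraries and 2 were over 1.5-fold higher. Among all genes with at least 50 UMIs, 27.2% in control and 26.9% in CD4-Cre were that much lower and 11.0% and 8.42% that much higher. The number of members that were lower is therefore close to the background. With clusters 2 and 7 alone as the reference, which leaves out the clusters led by activation genes, Fcer2a differed by −4.02 and −4.19, Plac8 by 1.79 and 2.08 and Ms4a1 by 0.98 and 0.79.

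**Figure D3:**
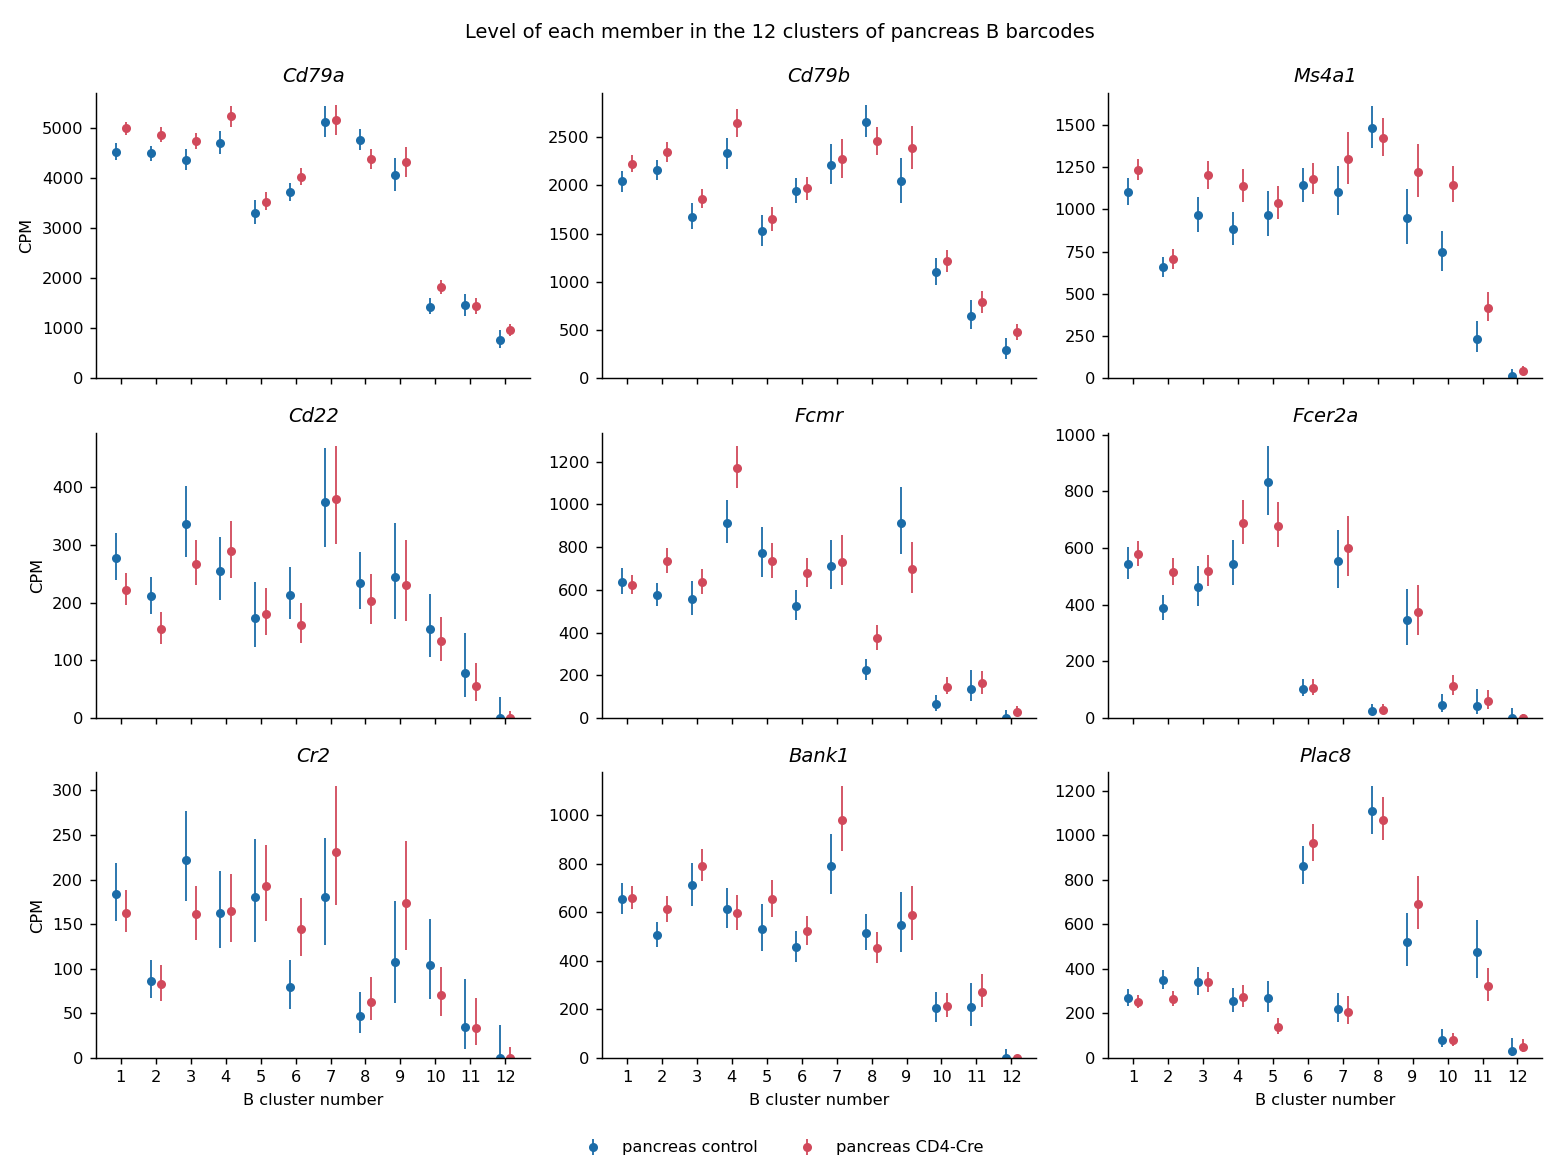
Level of each member (CPM, axes from 0) in the 12 clusters of pancreas B barcodes, with control and CD4-Cre in separate colours and bars for exact 95% Poisson intervals. Fcer2a is low and Plac8 high in clusters 6 and 8, and all members are low in cluster 12.

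Germinal centre-like barcodes had less of most members per UMI. Cd79a stood at 1429 CPM against 4459 in follicular-like barcodes of control and at 1821 against 4694 in CD4-Cre. Fcmr was 11.0-fold and 5.74-fold lower and Fcer2a 11.2-fold and 5.37-fold lower. A single CD4-Cre barcode held 26 of the 56 Fcmr UMIs, and without it Fcmr was 10.1-fold lower there. Of the 10 Fcer2a UMIs in control 1 barcode held 5, and without it the gene was 20.3-fold lower. Plac8 was 3.69-fold and 2.97-fold lower, with 16 of 18 and 22 of 30 UMIs in 1 barcode of each library. Without that barcode Plac8 was 29.7-fold lower in control, on 2 UMIs, and 10.5-fold lower in CD4-Cre, on 8 UMIs. Ms4a1 was within counting error of the follicular-like level in control (−0.12, −0.36 to 0.12) and slightly above it in CD4-Cre (0.27, 0.12 to 0.43). Over 1.5-fold lower were 7 of 9 members in control and 8 of 9 in CD4-Cre, against 31.8% and 29.9% of all genes. The summed RNA of these barcodes is several times larger, as their depth shows, so a lower CPM here is a smaller share of a larger total.

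Cluster 6 (73 and 90 barcodes) had Plac8 at 863 and 966 CPM and Fcer2a at 104 and 107, towards the B1-like levels. Its Fcmr, at 526 and 679 CPM, was nearer the follicular-like level (697 and 838) than the B1-like one (224 and 374). It held 5 of 9 B1, 4 of 7 age-associated and 4 of 9 marginal zone markers. Its B1 markers summed to 1348 CPM, against 6599 in cluster 8. It is left unnamed because haemoglobin genes and Gzma led it, with 51.8% of the Hba-a1 UMIs in 1 barcode. Cluster 9 was led by pancreatic enzyme genes and cluster 11 by macrophage genes.

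In plasma barcodes the heterodimer was present at a lower level than in B barcodes, and Fcer2a and Cr2 were not detected. The plasma gate (Jchain, at least 10% of UMIs from immunoglobulin constant genes and other plasma genes) took 5 barcodes in pancreas control and 1 in CD4-Cre, too few in the latter to read. Whether counting from the 5′ end lowers the constant-gene share was not tested. A wider gate of at least 100 Jchain UMIs, chosen after the data were seen, took 10 and 14, all with at least 2 UMIs of Cd79a and Ms4a1. The plasma gate holds 5 and 1 of them, and the other 5 and 13, counted among the B barcodes above, are set apart here. In the wider gate Cd79a stood at 655 CPM (559 to 764) in the control library and 1206 (1088 to 1333) in CD4-Cre, and Cd79b at 364 (293 to 446) and 554 (475 to 642), each detected in all 10 and all 14 barcodes. Fcer2a and Cr2 had 0 UMIs in both libraries, which puts Fcer2a at least 31.3-fold and 45.6-fold below the remaining B barcodes at a floor of 3 UMIs over the group. Cr2 was at least 10.8-fold and 14.3-fold lower. Bank1 had 3 UMIs and 1 UMI, each from 1 barcode. The median log2 difference of the 7 members outside the rule was −4.35 in control and −4.49 in CD4-Cre, with members at 0 taken at their bound, and −3.09 for the 5 barcodes of the narrower gate. All genes with at least 50 UMIs were over 1.5-fold lower in 75.2% and 82.4% of cases in the wider gate and 78.8% in the narrower one. That all 7 were lower is therefore near the background. With immunoglobulin genes left out of the total, the median of the narrower gate was −1.89 in control.

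Between genotypes the members differed by little in pancreas B barcodes. The 9 log2 ratios of CD4-Cre over control ran from −0.26 to 0.17 with a median of 0.04, where the median of all 8948 genes tested was 0.05. None of the 9 was past 1.5-fold in either direction, and 6.50% of all genes were, 4.25% higher and 2.26% lower. The counting intervals of the libraries did not overlap for 5 members. Ms4a1 (0.16, 0.10 to 0.22), Fcmr (0.14, 0.06 to 0.21) and Fcer2a (0.17, 0.08 to 0.27) were higher in the CD4-Cre library, and Cd22 (−0.26, −0.39 to −0.14) and Plac8 (−0.19, −0.28 to −0.10) were lower. Cd79a (0.04), Cd79b (0.02), Cr2 (0.03) and Bank1 (0.09) overlapped. With 1 pooled library per genotype the spread between mice is not known, so none of these is shown to differ between genotypes.

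Summed levels of markers of other cell types and of cycling also differed, for some lists, between the B barcodes of the pancreas libraries. The summed level of 8 macrophage markers was 392 CPM in control and 661 in CD4-Cre, of 10 plasma markers 2489 and 4397, of 8 exocrine markers 258 and 384, of 7 cycling markers 103 and 239 and of 6 NK markers 7.45 and 32.5. The 6 neutrophil markers were lower in CD4-Cre, at 86.7 and 50.8 CPM, conventional dendritic markers stood at 1281 and 1214, plasmacytoid dendritic markers at 202 and 196, and 10 T cell markers stood at 40.0 and 47.3 with Cd3e at 0 by the rule. Their part in the ratios of the members was not tested. Without the clusters led by exocrine, macrophage and plasma genes, an alternative chosen after seeing the data, Fcmr stood at 0.22 and Fcer2a at 0.23.

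**Figure D4:**
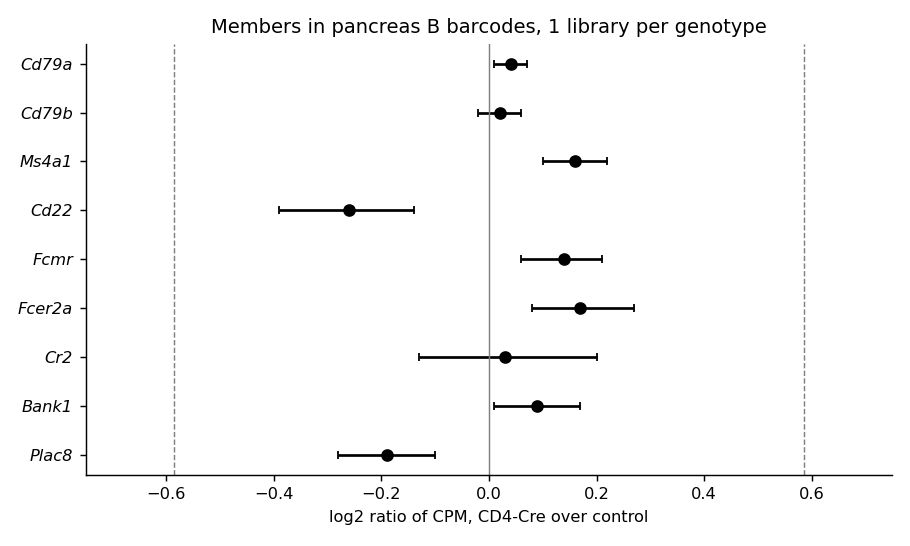
Log2 ratio of CPM, CD4-Cre over control, for each member in pancreas B barcodes, with 95% intervals for counting error only. The dashed lines mark 1.5-fold, and all 9 members lie between them, from −0.26 for Cd22 to 0.17 for Fcer2a.

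The rest of the receptor pathway also held no gene past 1.5-fold between genotypes. Of 40 further genes from the co-receptors, kinases, adaptors and transcription factors of B cell receptor signalling, 39 had at least 50 UMIs, 24 with a ratio above and 15 with one below equality, and 0 were past 1.5-fold, against 6.50% of all genes. Their median was 0.03, and the 39 ratios ran from −0.35 at the lowest to 0.27 at the highest, wider than the range of the members. The targeted gene Pou2af1 stood at 225 CPM in control and 242 in CD4-Cre B barcodes (0.11, −0.02 to 0.23), although counts from the 5′ end need not fall in a deleted part. Named after their values were seen, the ones furthest below equality were Pax5 (−0.35, −0.50 to −0.19) and Ebf1 (−0.30, −0.36 to −0.24), transcription factors of B cell identity, and the ones furthest above were Cd81 and Bcl10 (0.27 each). The kinases Syk (0.01) and Btk (0.11) and the adaptor Blnk (0.06) had intervals that overlapped. Of 12 immunoglobulin constant genes, 10 could be tested and 2 were past 1.5-fold, Ighg1 with 11 UMIs in control and 1930 in CD4-Cre and Ighg2b with 645 and 192. The 13 CD4-Cre barcodes with at least 100 Jchain UMIs held 1753 of those Ighg1 UMIs, and 1 control barcode held 429 of the Ighg2b UMIs. The 13 also held 3411 of the 9653 Ighm UMIs in CD4-Cre B barcodes, against 0 of 5840 in the 5 of control. Ighd stood at 430.1 and 304 CPM (−0.50, −0.59 to −0.40).

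Outside B cells, each member but Plac8 was low in the pancreas. B barcodes had the highest level in both libraries for the other 6 members outside the rule, and for Cd79a and Ms4a1 the rule fixes it. For Cd79a and Cd79b the plasma gate came next, though its 1 barcode in CD4-Cre overlapped the class below. Below that the intervals of neighbouring classes mostly overlapped. Plac8 instead was highest in plasmacytoid dendritic barcodes, at 624 CPM in 5 control and 2129 in 12 CD4-Cre barcodes, and stood at 366 and 326 in macrophages and 270.2 and 293 in conventional dendritic barcodes. In T barcodes it stood at 28.4 and 28.8. In the control the levels of plasmacytoid dendritic and B barcodes overlapped. Bank1 was detected in 10.0% and 11.0% of macrophage barcodes, at 15.8 and 14.4 CPM.

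Cd79b and Plac8 were also detected in T barcodes, unevenly between T subsets. In the lymph node, CD8 T barcodes had a Cd79b UMI in 17.1% (14.4 to 20.1) of 719 in the control library and 17.4% (15.5 to 19.4) of 1491 in CD4-Cre, against 0.861% and 0.747% of CD4 T barcodes without Foxp3. Cd79a was in 0.278% and 0.0671% of the same CD8 barcodes, and both chains together were in 1 and 2 lymph node T barcodes. Over all lymph node T barcodes there were 190 and 384 Cd79b UMIs but 7 and 10 of Cd79a. Cd79b made up 96.4% and 97.5% of both chains there, against 32.5% and 32.2% in pancreas B barcodes. Pancreas T barcodes differed from those of the lymph node. Cd79b made up 45.3% and 58.7% of both chains in them, with 146 and 126 Cd79a UMIs against 121 and 179 of Cd79b. The Cd79a UMIs came from 35 of 2199 and 40 of 3901 barcodes, with up to 24 and 35 in 1 barcode. This balance therefore rests on few barcodes and does not describe pancreas T barcodes at large. Median depth in the lymph node was 5538 and 5383 UMIs in CD8 and 4542 and 4233 in CD4 barcodes without Foxp3. In the pancreas it was 3848 and 4023 in CD8 and 3472 and 3469 in CD4 barcodes without Foxp3.

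Plac8 also differed between CD8 and CD4 barcodes without Foxp3. It was in 24.1% (21.0 to 27.4) and 29.4% (27.1 to 31.8) of lymph node CD8 barcodes and in 0.431% and 0.291% of CD4 barcodes without Foxp3. In the pancreas the CD8 shares were lower, at 5.76% and 9.93% for Cd79b and 10.6% and 11.7% for Plac8, with CD4 shares of 1.70% and 1.01% and of 1.09% and 1.06%. These shares were not thinned, and pancreas CD8 barcodes were shallower than lymph node ones. In CPM, Cd79b stood at 19.3 and 27.4 in pancreas CD8 barcodes, against 34.2 and 37.7 in lymph node ones. Plac8 stood at 53.7 and 51.1 CPM, against 80.7 and 95.1. Over all lymph node T barcodes Plac8 stood at 26.3 CPM in control and 36.6 in CD4-Cre (log2 ratio 0.48, 0.30 to 0.66), and in pancreas T barcodes the ratio was 0.02 (−0.20 to 0.25). Within lymph node CD8 barcodes it stood at 80.7 CPM (72.3 to 89.8) and 95.1 (88.7 to 102), intervals that overlap. Other T groups held these genes too, and the Trdc group was not kept apart from the CD8 and CD4 barcodes. Barcodes with at least 2 Trdc UMIs, a marker of γδ T cells, had Plac8 in 10.3% of 107 and 10.9% of 119 in the pancreas and in 23.1% (5.04 to 53.8) of 13 and 40.0% (24.9 to 56.7) of 40 in the lymph node. They had Cd79b in 6.54% and 7.56% and in 23.1% and 12.5%, with intervals that overlap those of the CD8 barcodes. A barcode could count in both the Trdc and the CD8 group, so the likeness of these shares may be partly built in. CD4 T barcodes with Foxp3 had Cd79b in 5.88% and 5.97% in the pancreas and 5.43% and 3.70% in the lymph node, and Plac8 in 1.47% and 2.99% of the pancreas ones and 0 of 92 and 0 of 216 lymph node ones, which allows a share of up to 3.26% and 1.39%.

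**Figure D5:**
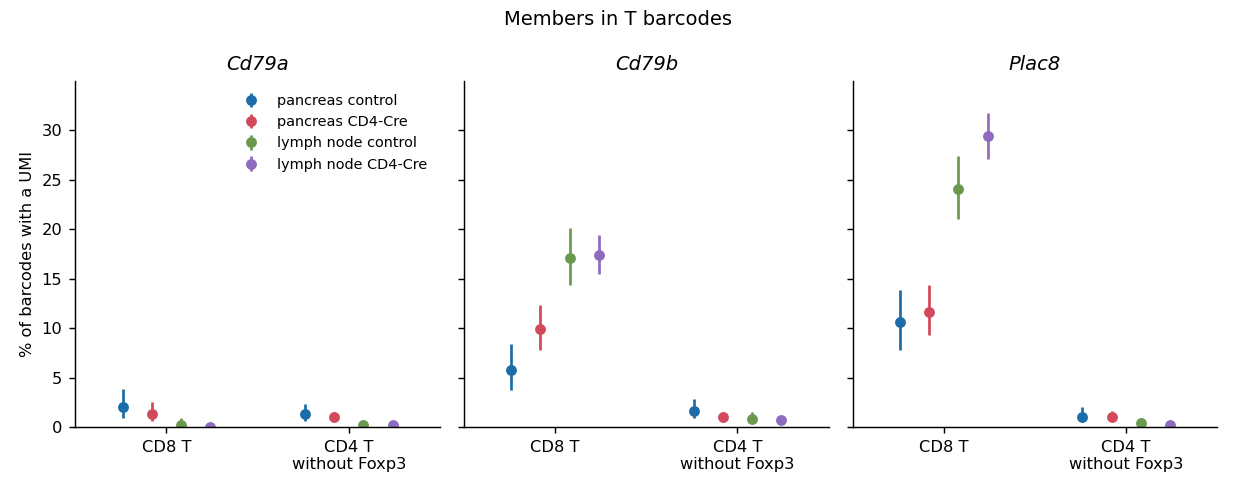
Share of CD8 T and of CD4 T barcodes without Foxp3 that had a UMI of Cd79a, Cd79b or Plac8 (% of barcodes, unthinned), by library, with exact 95% binomial intervals. Cd79b and Plac8 are higher in CD8 than in CD4 barcodes of all 4 libraries, and Cd79a is at most 2.07% in each.

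The genes most like each member were sought by the correlation of log2 CPM over 12 points, 6 cell classes in each pancreas library, among 9960 genes. Members were among the 3 most alike for several others. Cr2 followed Ms4a1 (Pearson r 0.9832), Cd22 followed Fcmr (0.9794) and Bank1 followed Cd79b (0.9253). Vpreb3 was the most alike to Ms4a1 (0.9859) and Myl4 to both Cd79a (0.9940) and Fcer2a (0.9845). Plac8 stood with Smagp (0.9646), Fgd2 (0.9636) and Myo5a (0.9555). The points share libraries and the contrast of B barcodes with the rest, so these values only describe the order.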

How the data were processed

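The deposited values are UMI counts per gene and barcode, whole numbers without normalization, written by software version 3.0.0 per the file headers. Cell Ranger and the mm10 build are named in the submitters' processing notes. The strand used in counting is not given in the sources used here, and Ms4a1, Cd22 and Bank1 each overlap an antisense gene.

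Barcodes with at least 500 genes detected were kept where no more than 10% of UMIs were mitochondrial. Doublets were then removed by a score against simulated doublets (2 per barcode), at 0.8% per 1000 barcodes listed, which removed 75 to 388 per library. Counts were summed per class and library, since there is 1 library per group, and given as CPM with exact Poisson intervals, shares with exact Clopper-Pearson intervals and ratios with conditional binomial intervals. They cover counting error only. Thinned shares are expectations over random draws, with the interval taken from the rounded count. Other classes were gated on genes that are no members and, plasma apart, met a further criterion that is not reported here. T barcodes needed a Cd3e UMI and at least 2 UMIs of the Cd3 genes, and were called CD8 by Cd8a or Cd8b1 counts without Cd4, and CD4 by the reverse. B barcodes were clustered by Leiden (igraph 0.11.9) on 1000 variable genes, 20 components and 15 neighbours at resolution 0.8. Python 3.11.15, numpy 2.4.6, scipy 1.17.1, pandas 2.3.3 and scikit-learn 1.9.0 were used, with library scaling by edgeR 4.0.16 and DESeq2 1.42.0 in R 4.3.3 as alternatives. The interval and ratio steps were tested on simulated data. Gene positions are those of GRCm38.

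The members, gene lists and comparisons were chosen with earlier results of these data known. Genes were named by rule: all 9 members, pathway genes past 1.5-fold, the 3 genes most like each member and the 5 leading genes of each B cluster, of which the text prints some. No pathway gene passed 1.5-fold, so the pathway, immunoglobulin and label-check genes printed were chosen after their values were seen. Alternatives covered barcode filters, gates, doublets, scaling, thinning and clustering.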

Additional observations from a re-analysis of the deposited data

How the results depend on the processing

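No paired analysis was possible because each group has 1 library and the labels give no replicate numbers. Across 20 alternatives, 0 of the 9 members passed the fold set between genotypes, also at the lower fold tried. Some of them, a higher fold and other cut-offs for the background genes, could not raise that count. Over 16 alternatives Ms4a1, Fcmr, Fcer2a and Bank1 stayed above equality and Cd22 and Plac8 below it, while Cd79b was above in 14 and Cr2 in 13. Library scaling moved the centre: the median of the members went from 0.04 to −0.003 with edgeR TMM and −0.001 with DESeq2 size factors, and Cd79a turned to −0.003 and −0.001.

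Depth set how many members were seen together. The share with 3 or more of 7 was 20% in control and 21.6% in CD4-Cre at 500 UMIs, 83.9% and 84.7% at 2000 UMIs, and 94.7% and 94.6% without thinning. The plasma median of the narrower gate was −3.09 in control and −0.35 in CD4-Cre, with members at 0 taken at their bound. In CD4-Cre it rests on 1 barcode, where all but Cd79b of the 7 members had 0 UMIs, so it is an upper bound. With immunoglobulin genes left out of the total the medians were −1.89 and 0.81, the latter again an upper bound. A plasma gate of 20% immunoglobulin left 1 barcode in control and none in CD4-Cre, and the control median was −0.26. The log2 ratio of Fcer2a between the highest and the lowest B cluster was 4.72 (4.12 to 5.39). It was 3.88 with filters of 200 genes and 20% mitochondrial UMIs, 3.45 without removal of doublets, 3.44 at resolution 0.4, 3.87 with 2000 variable genes and 4.10 without barcodes of at least 100 Jchain UMIs, an alternative chosen after seeing the data. Unless stated, the cause was not tested.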
